A study of Mus musculus with 8 samples.

Results

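The sites described here are the Pax6 binding sites whose nearest annotated gene is a microRNA gene. They were chosen from a table of Pax6 sites by the gene symbol alone, as every row whose symbol starts with Mir and a digit or with Mirlet7. The rule took 567 of 26244 sites (2.16%), nearest to 252 genes, and used no measured value. Among those genes, 4 are longer host transcripts (Mir9-3hg, Mir124a-1hg, Mir155hg and Mir22hg, with 6 sites together) and 248 are microRNA genes proper. The cells were alphaTC1, a cloned mouse pancreatic alpha-cell tumour line that makes glucagon. In the control knockdown (control KD) the cells received antisense oligonucleotides of a scrambled sequence. In the Paupar knockdown (Paupar KD) they received antisense oligonucleotides against the long non-coding RNA Paupar, a transcriptional neighbour of Pax6. Pax6-bound chromatin was immunoprecipitated and sequenced (ChIP-seq) in 2 libraries a group, described by the submitters as biological duplicates. The 4 input libraries are not analysed here. A single cell line was used, and ChIP measures no RNA, so neither the labelled cell type nor the loss of Paupar could be checked from RNA, and no microRNA level was measured.

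MicroRNAs are short RNAs cut from a hairpin within a longer primary transcript, first by Drosha with Dgcr8 in the nucleus and then by Dicer in the cytoplasm. An Argonaute protein carries the mature strand, and bases near its 5′ end, the seed, pair with target messages and reduce their translation or stability. Many microRNA hairpins lie in introns of protein-coding genes and are made from the host's transcript, while others, such as miR-375, have a transcription unit of their own. Pax6 is a transcription factor with a paired domain and a homeodomain, required in islet endocrine cells, the eye and the forebrain, and miR-375 and miR-7 are characteristic of islet endocrine cells. A microRNA gene in the annotation is the hairpin, with a median annotated length of 83 bp for these genes, so a distance below runs to the hairpin and not to the start of its primary transcript.

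Mature microRNA sequences from RefSeq (GRCm38.p6) were found for 229 of the 252 genes, as 357 sequences. They are shown for microRNAs whose sites are described below, 5′ to 3′, with the seed (bases 2 to 8) in capitals. First come microRNAs nearest to sites with a higher Pax6 signal after Paupar KD:
miR-5103: uCAUCCGGgauccccugagg
miR-582-5p: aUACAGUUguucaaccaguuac
miR-1895: cCCCCGAGgaggacgaggagga
miR-205-5p: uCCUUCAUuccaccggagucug
miR-190a-5p: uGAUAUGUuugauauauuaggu
miR-129-5p: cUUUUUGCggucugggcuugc
miR-488-3p: uUGAAAGGcuguuucuugguc
Then come microRNAs nearest to sites with a lower signal, beside miR-488, whose gene had a site of each kind:
miR-5114: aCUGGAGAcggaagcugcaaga
miR-7687-3p: cCACUCAGucgccccgccaca
miR-6396: gGGGCCUUagcuccuaguccugga
miR-6973b-3p: uGCUCUCUuacccuuccuag

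Seeds were mostly private to 1 gene: 15 seeds occurred in 2 or more of the genes, and these involved 28 genes. The seeds below are shared, and the sites of their genes are described further on. The miR-29 and miR-7 families belong to a list of islet microRNAs, and 3 genes of the miR-29 family share 1 seed:
miR-29a-3p: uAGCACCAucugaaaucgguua
miR-29b-3p: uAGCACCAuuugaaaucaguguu
miR-7a-5p: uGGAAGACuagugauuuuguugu
miR-7b-5p: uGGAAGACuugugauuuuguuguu
miR-1961 carries the seed of the let-7 family, and miR-344 and miR-344g share the seed of their 5p strands:
miR-1961: uGAGGUAGuaguuagaa
let-7b-5p: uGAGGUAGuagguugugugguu
miR-344-5p: aGUCAGGCuccuggcuagauuccagg
miR-344g-5p: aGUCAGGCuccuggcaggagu
The site by Mir344 was called higher (below), while the site by Mir344g, at 5.24 in control KD and 5.10 in Paupar KD, had an FDR of 0.917 by the authors' deposited table. One of the 2 Mir1961 sites was called higher, and the lowest FDR of the 4 Mirlet7b sites in that table was 0.745. Neither contrast between genes was tested.

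Pax6 sites near microRNA genes lay farther from the annotated gene start than Pax6 sites in general. For a microRNA gene that start is the hairpin's and not that of a primary transcript, so the distances compared are not of one kind. The median distance was 18.6 kb, against 11.8 kb for all 26244 sites. Within 1 kb of the start lay 58 of the sites (10.2%), against 19.4% of all sites, and 146 (25.7%) lay over 50 kb away, against 18.6%. By the authors' annotation, 258 sites (45.5%) were intronic, 158 (27.9%) intergenic and 121 (21.3%) in promoters, against 36.8%, 28.9% and 27.5% of all sites. The annotation takes introns and promoters from any transcript. Of the 248 microRNA genes, 178 (71.8%) lie inside another RefSeq gene, and 283 of the 567 sites (49.9%) fell within the same gene that holds their microRNA. No test was made of these shares, which describe positions and not samples.

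**Figure D1:**
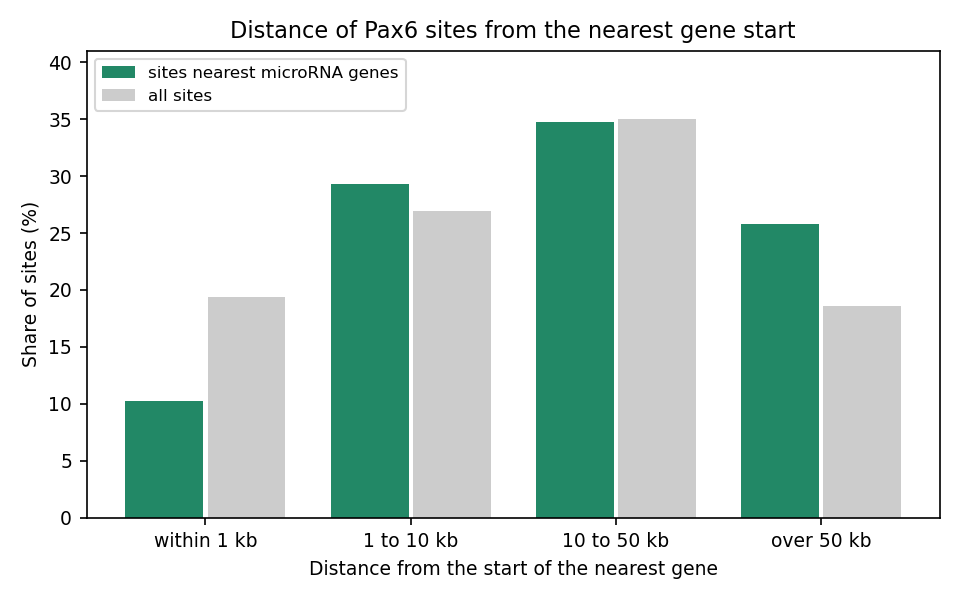
Share of sites (%, y axis) by distance from the start of the nearest gene (x axis), for the 567 sites nearest microRNA genes (green) and all 26244 sites (grey). The green bar is lower than the grey bar within 1 kb (10.2% against 19.4%) and higher over 50 kb (25.7% against 18.6%). For microRNA genes the start is that of the hairpin.

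The comparison of Paupar KD with control KD asked where Pax6 occupancy differs when Paupar is depleted. At sites near microRNA genes, 15 had a higher and 5 a lower Pax6 signal after Paupar KD at a false discovery rate (FDR) below 0.05, as given in the authors' deposited table. These are 2.65% and 0.882% of the 567 sites. Over all 26244 sites the shares were 3.26% (855 sites) and 0.846% (222 sites), so the members' shares were close to the background in both directions. The authors' deposited table gives no value per library, only a mean over the 2 libraries of each group. That mean is a read concentration, read here as log2. It ranged over these sites from -0.01 to 8.88 in control KD and from -0.02 to 8.56 in Paupar KD, with medians of 4.22 and 4.30. The median log2 change, Paupar KD minus control KD, was -0.01 (280 sites above 0 and 284 below), and it was -0.03 over all sites in the authors' deposited table. The concentration was at or below 0, the floor of the scale, at 14 of the sites in control KD and 1 in Paupar KD, and such sites are given without a fold.

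**Figure D2:**
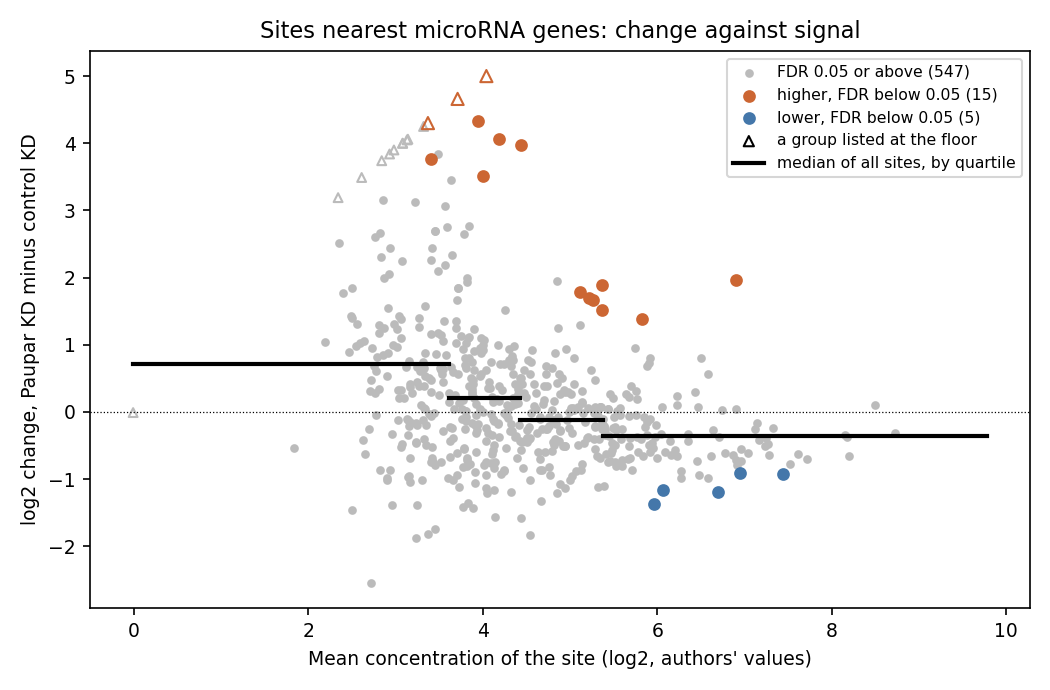
The log2 change of each site, Paupar KD minus control KD (y axis), against its mean log2 concentration (x axis), with the 15 higher sites in orange, the 5 lower sites in blue and the others in grey. Triangles are sites with a group at the floor. The black lines are the medians over all 26244 sites in each quartile of concentration, which step down from 0.72 to -0.36.

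The direction of change followed the strength of the site, near microRNA genes and in the whole table alike. In the weakest quartile of mean concentration the members' median log2 change was 0.62, and in the strongest quartile it was -0.39. The same medians over all sites were 0.72 and -0.36 in the authors' deposited table. All 5 lower sites were in the strongest quartile, and 13 of the 15 higher sites lay outside it. Over all sites, that quartile held 188 of the 222 lower sites and 196 of the 855 higher sites. In the authors' deposited table the 15 higher sites had a median of 1.37 (control KD) and 5.35 (Paupar KD). The 5 lower sites had medians of 7.16 and 5.97.

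The site with the lowest FDR was intergenic, 33.6 kb downstream of the start of Mir5103 (chr1:34399535-34399634, mm10). Its concentration was 5.62 in control KD and 7.57 in Paupar KD, a log2 change of 1.96 at an FDR of 1.14e-07, as the authors' deposited table has it. A peak summit was called there in all 4 libraries, with scores of 39.4 and 16.9 in control KD and of 138 and 169 in Paupar KD. The summit score is read as −log10 of the q-value of its own library. The groups' scores did not overlap, though scores also depend on the depth of a library, which is unknown. A second Mir5103 site, 23.0 kb downstream, went from 0.55 to 4.39 with an FDR of 0.0507 in that table. The other 2, one farther downstream and one 1.64 kb upstream, had values of 3.98 and 6.88 in control KD and 3.36 and 6.92 in Paupar KD.

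Of the 15 higher sites, 7 were intergenic, 7 intronic and 1 in a promoter. Among the 855 higher sites of the whole table these classes held 332, 367 and 113. A higher site 31.4 kb upstream of Mir582 lies in an intron of Pde4d, a cyclic AMP phosphodiesterase, which also holds the microRNA. Its concentrations of 1.37 and 5.35 gave a log2 change of 3.98 and, by the authors' deposited table, an FDR of 0.00123. Summits were called in both Paupar KD libraries and in neither control KD library. The site 62.2 kb upstream of Mir1895 went from 1.04 to 5.10 (FDR 0.00404, from the authors' deposited table), while the site 151 bp from the start of the same gene, in Cxxc4, stood at 7.24 and 7.0. A site 42.0 kb downstream of Mir6378 went from 0.55 to 4.87, the largest log2 change among sites off the floor with an unadjusted p below 0.05, at 4.33 (FDR 0.00487, from the authors' deposited table). Both of these had a summit only in Paupar KD replicate 1.

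A higher site lay 353 kb from Mir205, a microRNA of epithelia, with concentrations of 4.13 and 6.03 (FDR 0.011, from the authors' deposited table). The site 41.2 kb downstream of Mir190a, which is hosted by the cytoskeletal gene Tln2, went from 4.96 to 6.35 (FDR 0.0176, from the authors' deposited table). It was one of 2 higher sites that had summits in all 4 libraries, the other being the Mir5103 site. Near Mir129-1, whose product is abundant in neurons, the site at 14.4 kb rose from 4.43 to 5.94 (FDR 0.0387, from the authors' deposited table). That site lies within Lnclep, 23.2 kb from the start of Lep, which encodes leptin. Intronic higher sites were also found in Klf7, a Krüppel-like factor (nearest Mir6899, 4.21 to 5.87), in Ldlrad4 (nearest Mir7219, 4.13 to 5.83), in Shroom3, which acts on apical actin (nearest Mir1961, 0.55 to 4.31), and in Atrnl1 (nearest Mir5623, 3.95 to 5.74). The FDR of these 4 ran from 0.0257 to 0.0486 in the authors' deposited table.

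At 3 further higher sites the control KD value was the floor of -0.01. They lay 329 kb from Mir378d (4.65 in Paupar KD), 103 kb from Mir682 (5.0) and 68 bp from Mir344 (4.30). Their FDR values in the authors' deposited table were 0.0136, 0.0204 and 0.0371. The Mir344 site was the only higher site within 1 kb of a microRNA start.

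No control KD summit was called at 11 of the 15 higher sites, nor at 664 of the 855 higher sites of the whole table. Of these 11, 6 had a summit only in Paupar KD replicate 1 (by Mir1895, Mir6378, Mir682, Mir488, Mir1961 and Mir344), 5 had one in both Paupar KD libraries, and 0 in Paupar KD replicate 2 alone. The concentrations of single libraries are not in the authors' deposited table, so the share of each library in these 6 calls was not tested. With sites that had a summit in at least 2 libraries, 9 higher calls were left. In the whole table, 206 of 855 higher sites (24.1%) had their summit in Paupar KD replicate 1 alone and 33 in replicate 2 alone.

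**Figure D3:**
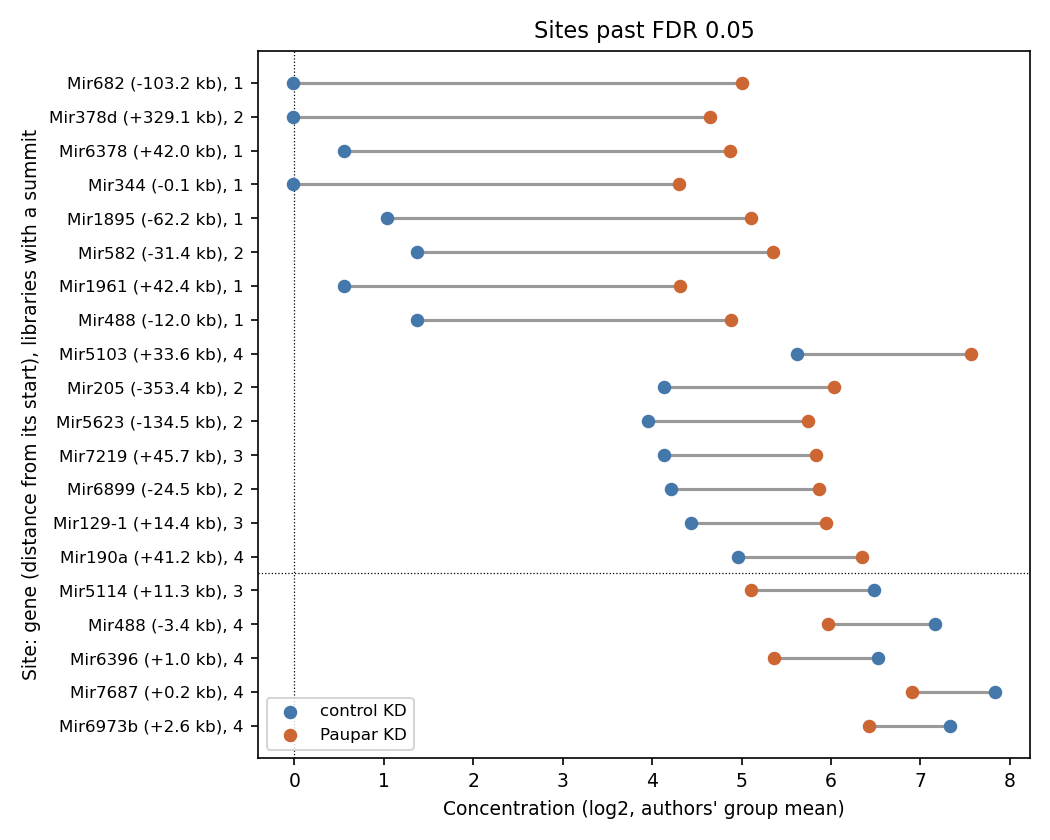
The authors' mean log2 concentration in control KD (blue) and Paupar KD (orange) at the 15 higher sites (above the dotted line) and the 5 lower sites (below it), each labelled with its gene, its distance from the gene start and the number of libraries with a summit. The lower sites start from 6.48 to 7.83 in control KD, and 8 of the higher sites start from 1.37 or below.

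The 5 lower sites were all strong in control KD, and 4 of them had a summit in all 4 libraries. The site 11.3 kb downstream of Mir5114 (chr19:44314490-44314589), a gene inside the fatty-acid desaturase gene Scd2, fell from 6.48 to 5.11 (FDR 0.02, from the authors' deposited table). Its summits were called in 3 libraries and not in Paupar KD replicate 1. The site 208 bp from the start of Mir7687 (chr8:120538904-120539003), within Gse1, fell from 7.83 to 6.91 (FDR 0.0305, from the authors' deposited table). The site 2.59 kb from Mir6973b, a microRNA of the GDNF-family receptor gene Gfra4, fell from 7.33 to 6.43, and that 959 bp from Mir6396, inside Pabpn1l, fell from 6.53 to 5.36. Their FDR values in the authors' deposited table were 0.0473 and 0.0488.

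Mir488 was the only one of the 252 genes with both a higher and a lower site. Its hairpin and its 3 sites lie within Astn1, which encodes astrotactin, a neuronal adhesion protein. The site 3.38 kb upstream (chr1:158502141-158502240), in an exon of Astn1, fell from 7.16 to 5.97 (FDR 0.0205, from the authors' deposited table), with summits in all 4 libraries. The site 12.0 kb upstream rose from 1.37 to 4.88 (FDR 0.0219, from the authors' deposited table), with a summit only in Paupar KD replicate 1. Between them, the site 4.40 kb upstream stood at 6.01 in control KD and 6.08 in Paupar KD, with summits in all 4 libraries. The difference between the sites' changes was not tested.

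The strongest Pax6 sites near microRNA genes mostly had values somewhat below control KD, and 1 of the top 10 passed the threshold. The 10 sites of highest mean concentration ranged from 7.33 to 8.73, and 9 had a summit in all 4 libraries. The strongest lay 3.05 kb from Mir3089 (8.88 in control KD and 8.56 in Paupar KD), within an intron of the non-coding gene Gm14488. It was followed by a site 134 kb from Mir6395 (8.44 and 8.55) and one 558 bp from the start of Mir7032 in Hip1r (8.49 and 7.83), a gene of clathrin-mediated endocytosis. Next came a site 41.2 kb upstream of Mir129-1 (8.35 and 7.98) and one near Mir3108 in the homeobox gene Zfhx3 (8.31 and 7.96). Sites near Mir5126 in Dner (8.03 and 7.33), Mir6354 (7.89 and 7.26) and Mir701 in Ttc28 (7.44 and 7.20) and those of Mir375 and Mir7687 complete the 10. The change was below 0 at 9 of them, with a range of -0.92 to 0.11, and only the Mir7687 site had an FDR below 0.05 by the authors' deposited table. Of all sites with a mean concentration of 6 or more, 82.1% were also below 0. In the strongest quartile of all sites, 196 of 6561 were called higher and 188 lower. Centred on the median of all sites in the same quartile of concentration, the Mir3089, Mir3108, Mir701 and Mir6395 sites were above 0 (0.01 to 0.47). The rest of the 10 were below it.

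Within 1 kb of a microRNA start there were 58 sites at 53 genes, and 3 of them were called: Mir344 higher, Mir7687 and Mir6396 lower. These are 1.72% and 3.45% of the 58, against 0.923% (47 sites) and 1.75% (89 sites) of the 5094 sites of the table within 1 kb of any gene start. In 38 of the 58 the site was in the same gene that holds the microRNA. For 56 of the 58, the RefSeq promoter set held a start of another gene on the same chromosome, and 5 lay within 1 kb of one. That set held no such start on the chromosomes of the rest. It is thus incomplete, and the count of 5 may be too low. These sites ran from 2.54 to 8.20 in mean concentration. Their median log2 change was -0.11, and 32 were below 0. Centred by quartile of concentration, 23 of the 58 were above 0 and 35 below, with a median of -0.07. Of the 58, the 12 with a mean concentration of 6 or more were all below 0, from -1.17 to -0.25, with a median of -0.66. Of all sites in the authors' deposited table with that concentration, 82.1% were below 0, with a median of -0.42.

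At 13 genes the 100 bp site overlapped the hairpin itself, and 1 hairpin, that of Mir369, lay wholly inside its site. None of the 13 was called. Since 3.26% of all sites were called higher and 0.846% lower, 0 of 13 is near the background. The hairpins of Mir369 and Mirlet7b, from RefSeq, are printed to show how much of each the Pax6 site covers, with the covered bases in capitals:
Mir369 hairpin: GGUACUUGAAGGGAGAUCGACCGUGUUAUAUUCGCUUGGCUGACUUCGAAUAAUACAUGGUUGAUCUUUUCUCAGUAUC
Mirlet7b hairpin: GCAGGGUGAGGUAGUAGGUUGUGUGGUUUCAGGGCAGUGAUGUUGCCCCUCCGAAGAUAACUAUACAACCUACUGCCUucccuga
The Mir369 site (chr12:109743407-109743506) lies in Mirg, a non-coding RNA gene that carries many microRNAs. Its concentration was 4.12 and 3.44, control KD first, with an FDR of 0.725 by the authors' deposited table. The Mirlet7b site (chr15:85707297-85707396) covered 78 of the 85 bases, at 3.95 and 3.99 (FDR 0.991, from the authors' deposited table). Each had a summit in 1 library. Another of the 13, at Mir8105, was stronger (7.21 and 6.66), with summits in all 4 libraries.

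Of 37 microRNA genes on a list of islet microRNAs, 14 were nearest to a Pax6 site, with 54 sites between them. None was called in either direction, 27 were above 0 and 26 below, and the median log2 change was 0.02 in the authors' deposited table. Since 3.26% of all sites were called higher and 0.846% lower, 0 of 54 is near the background. Centred by quartile of concentration, 23 were above 0 and 31 below, with a median of -0.1. At an unadjusted p below 0.05 there were 5 of the 54, against 4552 of all 26244 sites. The lowest FDR of the 54, 0.0806, belonged to Mir375, the most characteristic islet microRNA. Its strongest site (chr1:74900988-74901087) lies 267 bp upstream of the hairpin. The concentrations were 7.86 in control KD and 7.09 in Paupar KD, with an unadjusted p of 0.00489 in the authors' deposited table. Summit scores there were 7.60 and 18.1 in control KD and 7.60 in Paupar KD replicate 2, and no summit was called in Paupar KD replicate 1. The log2 change of -0.77 did not pass the threshold.

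Mir375 had 7 Pax6 sites in all, from 15.1 kb upstream to 2.62 kb downstream. The 4 nearest sites were the stronger ones. Beside the site at 267 bp they stood at 5.42 and 5.46 (972 bp downstream), 5.96 and 5.81 (1.65 kb upstream) and 5.50 and 5.28 (2.62 kb downstream, in Cryba2, a crystallin gene). The 3 sites farther upstream, all in Cfap65, a gene of cilia and flagella, were weaker: 4.08 and 2.33, 2.43 and 3.04, and 4.23 and 4.64. Of the 7, 3 were above 0 and 4 below, and 2 had a summit in 3 libraries.

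The miR-29a and miR-29b-1 locus on chromosome 6 held the largest number of sites. Mir29b-1 had 20 sites, more than any other of the 252 genes, from 1.39 to 49.1 kb upstream, and its neighbour Mir29a had 7, from 1.06 to 29.5 kb downstream. The 27 sites span 79.6 kb, and every Pax6 site of the table in that span belongs to them. Lncpint, a long non-coding RNA gene, holds 9 of them. The strongest was in Lncpint, 36.7 kb upstream of Mir29b-1, at 6.90 in control KD and 6.24 in Paupar KD. Most were weak: 14 had a summit in 1 library and 3 in none, while 3 had one in all 4. A summit was called at 9 and 5 of them in the control KD replicates and at 13 and 15 in the Paupar KD replicates. Over all sites the groups did not overlap either, with 13106 and 9147 against 14265 and 16570. The difference at the locus was not tested. Of the 27, 16 were above 0 and 10 below, with a median of 0.36. An unadjusted p below 0.05 was found at 2 of the 27, against 4552 of all 26244 sites. The lowest FDR among the 27 was 0.207 in the authors' deposited table. Centred on the median of all sites in the same quartile of concentration, 12 were above 0 and 15 below, and the median turned to -0.08. The most negative change among them, at 32.3 kb, was between 4.72 in control KD and 3.16 in Paupar KD. Mir29b-2, on another chromosome with the same seed, had 1 site, at 4.17 and 4.07.

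**Figure D4:**
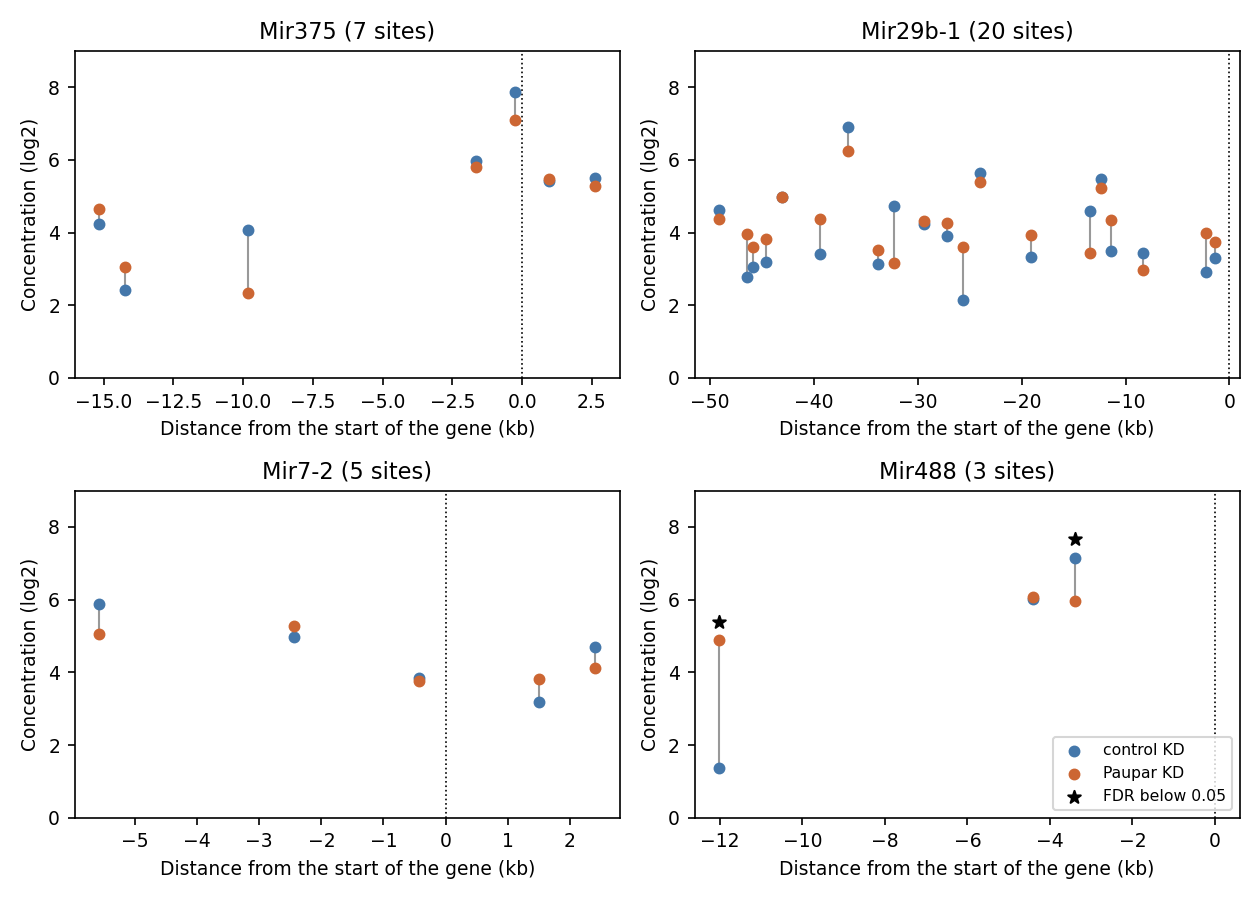
The authors' mean log2 concentration in control KD (blue) and Paupar KD (orange) at each site, against the distance from the start of the microRNA gene in kb (x axis, dotted line at 0), for Mir375, Mir29b-1, Mir7-2 and Mir488. Stars mark the 2 sites with an FDR below 0.05, both at Mir488, and the highest pair at Mir375 is 7.86 and 7.09.

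No site of the miR-7 genes was called. Since 3.26% of all sites were called higher and 0.846% lower, no call among so few sites is near the background. Mir7-2 had 5 sites within 5.57 kb, with concentrations of 3.18 to 5.87 in control KD and 3.77 to 5.29 in Paupar KD. Of these, 2 were above 0 and 3 below, and the lowest FDR was 0.379 in the authors' deposited table. Mir7b had 1 site, at 5.43 and 5.32. Mir26b, which shares a seed with Mir26a-1, had a strong site 3.19 kb downstream, at 7.31 and 6.71 (FDR 0.252, from the authors' deposited table), where a summit was called in 1 library. The Mir26a-1 site, in Ctdspl, was weaker, at 4.34 and 4.24. The 4 sites of Mir130a included one 49 bp from the hairpin, at 4.16 and 3.37, and one at the floor, with -0.01 in control KD, 3.74 in Paupar KD and an FDR of 0.152 by the authors' deposited table. Mir182, a sensory-organ microRNA, had 1 site 540 bp upstream, at 4.08 and 4.86. Single sites or pairs of sites near Mir148a, Mir24-2, Mir30c-2 and Mir34a lay between 2.55 and 4.78 in control KD and between 2.57 and 5.08 in Paupar KD.

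A list of 27 neural and eye microRNA genes and hosts had 9 with a Pax6 site, 16 sites in all, and 0 of them was called. Of all sites, 3.26% were called higher and 0.846% lower, so 0 of 16 is near the background. Of the 16, 10 were above 0 and 6 below, and the median was 0.32. Centred by quartile of concentration, 7 were above 0 and 9 below, and the median turned to -0.17. A summit was called in 1 library at 13 of them, and 2 had an unadjusted p below 0.05 in the authors' deposited table. Mir204, the Trpm3 microRNA of lens and retinal pigment epithelium, had 3 sites, all in Trpm3. The site 2.98 kb downstream, with summits in all 4 libraries, stood at 5.17 and 4.85 (FDR 0.814, from the authors' deposited table), and the other 2 at 4.61 and 3.74 and at 3.06 and 3.45. Mir137, a neuronal microRNA, had sites at 5.52 and 5.11, at 1.55 and 3.55 and at 1.92 and 4.57. The lowest FDR of the 3 was 0.0966 in the authors' deposited table, at the last. The lowest FDR of the list, 0.0606, was at a site 275 kb from Mir181a-1, where control KD was at the floor (-0.01) and Paupar KD at 4.24. The start of Mir124a-1hg, host of the neuronal miR-124, had 2 sites within 184 bp, at 5.41 and 5.46 and at 3.67 and 4.41. Mir9-2 had one 800 bp upstream, at 5.73 and 5.24, and one 1.01 kb downstream, at 4.14 and 4.56. The sites of Mir124a-3, Mir125b-2, Mir218-2 and Mir9-3hg lay between 2.88 and 4.69 in control KD and between 3.36 and 4.30 in Paupar KD. The let-7 family entered with Mirlet7b alone: 4 sites, the strongest 2.15 kb away at 5.62 and 5.26.

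Sites were unevenly spread over the genes. A single site was found for 145 of the 252 genes, and 27 genes with 5 or more sites held 212 of the 567. After Mir29b-1 came Mir378b with 15 sites, all in Msi2, which encodes a Musashi RNA-binding protein. They reached 7.16 in control KD and 6.52 in Paupar KD, 12 of the 15 were below 0, 7 had summits in all 4 libraries, and the lowest FDR was 0.196 in the authors' deposited table. Mir692-2 had 14, all within Grik3, a kainate receptor gene, with 8 above 0 and 6 below and a lowest FDR of 0.0805 in the authors' deposited table at a site that stood at 6.99 and 6.0. Mir7021 had 12 and Mir7689 10, all 10 of the latter in the sorting receptor gene Sorcs2. Mir6378 had 10, from 327 kb upstream to 53.4 kb downstream, 4 of them with summits in all 4 libraries, and 1 was called. Mir205 had 8, of which 6 were above 0, 4 had an unadjusted p below 0.05 and 1 was called. Of these 8, 5 had a summit in 1 library, and the lowest control KD value was the floor of -0.01. An unadjusted p below 0.05 was found at 80 of the 567 sites and at 4552 of all 26244. The signs given for these genes were not centred by concentration. Where many sites share a host, they share its transcript and neighbourhood and are not separate observations of a microRNA.

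Apart from the called Mir5114 site, the most negative changes off the floor at an unadjusted p below 0.05 missed the threshold. They were at Mir6993 (3.49 to 0.95, FDR 0.282), Mir3080 (5.18 to 3.34, FDR 0.103), Mir7214 (5.03 to 3.44, FDR 0.139) and Mir29b-1 (above), in the authors' deposited table. Summits were called at the Mir3080 site in both control KD libraries and in no Paupar KD library. Over the 567 sites, 6 had a summit in both libraries of control KD and neither of Paupar KD, and 38 (6.70%) had the opposite pattern. For all sites these were 385 and 2166 (8.25%).

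Genes that make or use microRNAs were looked at beside the microRNA genes. Of 29 pathway symbols, 10 were nearest to a Pax6 site, with 42 sites, of which 1 (2.38%) was higher and 0 lower, against 3.26% and 0.846% of all sites. The higher site lay 13.1 kb upstream of Tut7, a uridylyltransferase that acts on let-7 precursors, with concentrations of 2.99 and 5.37, an FDR of 0.0224 by the authors' deposited table and a summit only in Paupar KD replicate 1. Dicer1 had 1 site (4.30 and 4.11) and Ago2, the slicing Argonaute, had 6. Tnrc6a and Tnrc6b, the GW182 partners of Argonaute, had 12 and 8. Of 36 protein-coding hosts, 24 were nearest to a site, with 69 sites, of which 3 (4.35%) were higher and 0 lower, against 3.26% and 0.846% of all sites. They lay 14.2 kb from the imprinted gene Mest, host of miR-335 (1.87 to 7.09, FDR 0.0114), 136 bp from Copz1, a coatomer gene and host of miR-148b (4.13 to 5.78, FDR 0.0292), and 337 bp from Ptprn, a secretory-granule membrane protein gene (1.58 to 4.59, FDR 0.037), all by the authors' deposited table. The Copz1 and Ptprn sites had a summit only in Paupar KD replicate 1.

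The peak lists give the only values per library. A summit was called within 250 bp of the middle of the site at 300 and 198 of the 567 sites in the control KD libraries, and at 312 and 341 in the Paupar KD libraries. Control KD replicate 2, the lowest, stood apart from the other 3, and the groups did not overlap. The means were 249 ± 72.1 (SD, n = 2) and 326.5 ± 20.5 (SD, n = 2), a difference of 77.5 with a two-sided exact permutation p of 0.333, the smallest that 2 libraries against 2 allow. Over all sites the counts were 13106 and 9147 against 14265 and 16570, a ratio of the means of 1.39, against 1.31 for the sites near microRNA genes. When each list was cut to the 9983 summits of highest score, the length of the shortest, the counts were 214 and 198 against 204 and 196, and the difference was -6. A summit in all 4 libraries was found at 128 sites (22.6%), against 20.0% of all sites, and in 1 library at 260 (45.9%).

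**Figure D5:**
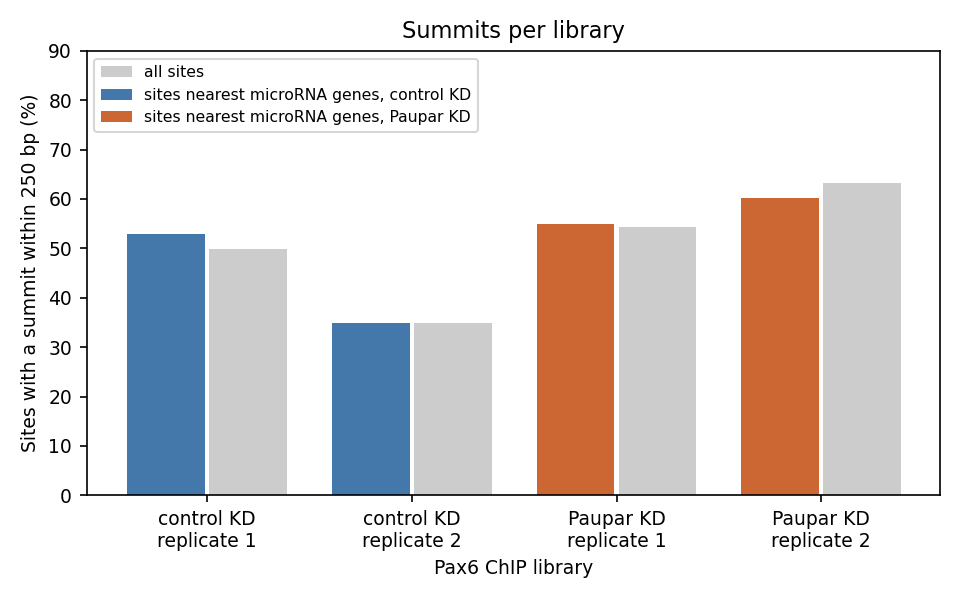
Percentage of sites with a peak summit within 250 bp (y axis) in each Pax6 ChIP library (x axis), for sites nearest microRNA genes (blue for control KD, orange for Paupar KD) and for all sites (grey). Control KD replicate 2 is lowest in both sets, at 34.9%, and Paupar KD replicate 2 is highest, at 60.1% and 63.1%.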

How the data were processed

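Pax6 ChIP-seq was analysed from 4 of the 8 libraries. The submitters' processing notes name Bowtie2, MACS2, DiffBind and ChIPseeker, with no versions, and mm10. Library scaling, the test within DiffBind and the role of the inputs are not stated in the sources used here. Depth is unknown, so counting error could not be given. The authors' deposited table gives, for 100 bp sites, group concentrations and a fold, read as log2, with the authors' p-value and FDR. The deposited −log10 FDR column was not needed. Its fold is control KD minus Paupar KD, and the sign was turned here. No site was refitted, since there are no values per library. Per-library summit scores were read as −log10 of the q-value because the deposited lists start near 2. The summit list of control KD replicate 2, whose replicate number differs from the sample's title, was assigned by its sample.

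Sites were matched to summits within 250 bp (Python 3.11.15, pandas 2.3.3), and host genes, mature sequences and hairpins came from RefSeq (GRCm38.p6). The matching was tested on simulated sites. Members and lists were chosen with earlier results of these data known. Text names the called sites, the 10 strongest, the 5 largest rises and falls off the floor at an unadjusted p below 0.05, sites within 1 kb, and the islet and neural lists. Genes with many sites, the pathway and host sites, and genes with a shared seed were chosen after their values were seen. Alternatives were other thresholds, subsets, centrings, match distances and libraries left out. Some sites are not reported here. A planned motif search was not run, since no genome was used here.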

Additional observations from a re-analysis of the deposited data

How the results depend on the processing

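Among sites near microRNA genes, the 15 higher and 5 lower calls became 4 and 0 at an FDR below 0.01 and 25 and 10 at an FDR below 0.1. At an unadjusted p below 0.05 they were 49 and 31, together 80 of the 567 sites, against 4552 of all 26244 sites. Counts over all sites were not taken at the other FDR thresholds. Higher calls were 9 among sites with a summit in at least 2 libraries and 8 when each gene was counted at its strongest site, and the lower calls stayed at 5 in both. The median log2 change of -0.01 was -0.17 among sites with a summit in at least 2 libraries. Centring on all sites, or on sites of like concentration, turned the sign of 0 of the 20 called sites. Under the second, the called sites off the floor ranged from 1.63 to 4.13 and from -1.01 to -0.55. That second centring turned the sign of 28 of 147 named sites. The difference in summits per library, 77.5, was -6 with equal list lengths, an alternative whose construction removes differences in list length. Leaving out 1 library at a time gave differences of 26.5 (without control KD replicate 2) to 128.5 (without control KD replicate 1), and 136 to 159 sites with a summit in all remaining libraries. The replicate numbers are not known to pair the libraries. With the replicate block the difference was 77.5, from pairs of 12 and 143, with an exact sign-flip p of 0.5, the smallest 2 pairs allow. The authors' calls could not be refitted without a library, and the motif search was not run.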

Other observations

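The nearest-gene rule leaves out Pax6 sites that lie close to a microRNA hairpin but closer to the start of another gene. Around 1005 RefSeq mouse hairpins, 79 Pax6 sites lay within 1 kb, of which 53 were sites described above and 26 were annotated to other genes. None of the 26 was called in the authors' deposited table. Within 10 kb there were 483 sites, 279 of them annotated to other genes, with 3 higher and 3 lower (1.08% each) and a median log2 change of -0.31. Over all sites 3.26% were higher and 0.846% lower, with a median of -0.03. These shares vary with distance from a gene start. Of the 5094 sites within 1 kb of any gene start, 0.923% were higher and 1.75% lower, with a median of -0.3. The 279 sites were not compared with others at like distances from their gene starts.

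The 3 higher sites were annotated to Wdr61, 9.34 kb from Mir5710 (1.37 to 5.27, FDR 0.00122), to Dst, a cytoskeletal linker gene, 6.09 kb from Mir6896 (1.64 to 5.16, FDR 0.00285), and to Ppp1r12b, 3.82 kb from Gm51265 (2.37 to 5.10, FDR 0.0248), in the authors' deposited table. Each had a summit in both Paupar KD libraries and in neither control KD library. The 3 lower sites had summits in all 4 libraries. Those described here were annotated to Brd3, a bromodomain gene, 9.14 kb from Mir7578 (7.28 to 6.25, FDR 0.0177), and to Rrp1, 8.98 kb from Mir6907 (8.05 to 7.30, FDR 0.0417), in the authors' deposited table.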
